A study of Homo sapiens with 10 samples.

Results

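The ERBB receptor family and its ligands were examined in lung cancer cells given estrogens and tamoxifen. The 10 genes were the receptors EGFR, ERBB2, ERBB3 and ERBB4, the ligands TGFA, AREG, EREG, HBEGF and NRG1, and the feedback inhibitor ERRFI1. They were taken as a family known to be transactivated by estrogen signals at the membrane, and each was followed through every probe set annotated to that gene alone. These were 37 of 54675 probe sets, covering 9 of 19775 genes with such a probe set. The array annotation used here names no probe set for AREG, so its expression was not analysed and only its promoter window was searched. Probe sets were tested where their mean reached an intensity of 19.7, the median over all probe sets. That left 24 member probe sets from 8 genes among 23144 from 12979 genes.

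The study compared early transcriptional effects of membrane and intracellular estrogen signals in A549, a lung adenocarcinoma line, and HTB-182, a squamous lung carcinoma line that the series title calls H520. Each line was kept for 4 h in charcoal-stripped serum and exposed for 3 h to 1 of 5 conditions. These were 1 µM estradiol-BSA with 10 µM tamoxifen, 1 µM estradiol-BSA, 1 µM estradiol with 10 µM tamoxifen, 1 µM estradiol, and 0.1% ethanol vehicle. Estradiol-BSA is estradiol bound to albumin, used to restrict the signal to receptors of the plasma membrane, and tamoxifen was used as an estrogen antagonist. Each combination was 1 array, so 10 arrays were compared, with no array of albumin or tamoxifen alone. Where estradiol and tamoxifen were combined, the array titles give tamoxifen only, and the source descriptions, which give both, were followed. No separate cultures are stated, so p-values measure only how far these arrays scatter, and that scatter may be technical. With 1 array per combination, fits that hold only line and treatment also count a response of only 1 line as scatter. Such a response widens their intervals, so an absence of calls there does not show that neither line responded.

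EGFR, ERBB3 and ERBB4 bind ligands of the epidermal growth factor family, whereas ERBB2 has no known ligand of its own and acts as the preferred dimerisation partner. The ligands are made as membrane precursors that metalloproteinases release. TGFA, AREG, EREG and HBEGF activate EGFR, and NRG1 activates ERBB3 and ERBB4. ERRFI1, also called MIG6, binds the kinase domain of EGFR and is induced by the receptor's own signal. In breast cancer cells, estrogen at the membrane is known to activate EGFR through release of HBEGF.

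The array of A549 with vehicle stood apart from the rest of its line. Compared with the mean of the 4 treated A549 arrays, 479 of the tested probe sets on it were 2-fold or more away. The same count, each array against the rest of its line, was 39 to 73 for treated A549 arrays and 0 to 18 for HTB-182 arrays. Its median intensity was 21.5, against 17.9 to 19.4 on the treated A549 arrays. The 3′ to 5′ signal ratio of GAPDH, a sign of RNA integrity, was 1.43 on that array and 1.45 to 1.74 on the other arrays. The same ratio of ACTB was 3.27 on that array and 2.66 to 3.57 on the treated A549 arrays. On the HTB-182 arrays it was higher, at 3.74 to 6.13, the highest with estradiol-BSA plus tamoxifen. Its part in the line differences was not tested. The lines differed in some epithelial markers, with KRT7 at 3411 ± 581 in A549 and 18.1 ± 4.37 in HTB-182 (SD, n = 5 arrays each). SOX2, a squamous lineage factor, had 135 ± 59.6 in A549 and 4152 ± 229 in HTB-182. The squamous keratins KRT5 and KRT14 were near or below the 19.7 level in both lines (22.1 and 8.43 in HTB-182), so these keratins did not bear out the squamous label. Of the other squamous markers measured, DSC3 had 20.0 in A549 and 29.4 in HTB-182. DSG3 (13.5 and 13.4) and PKP1 (17.7 and 16.5) were dim in both lines. NKX2-1, a lung adenocarcinoma marker, was at 17.0 in A549 and 17.9 in HTB-182. From the same marker list, KRT8 (3391 and 703), KRT18 (9139 and 2952) and NAPSA (31.2 and 22.3) were higher in A549. SFTPB (27.8 and 32.2) and SFTPC (41.6 and 48.0) were not, and SFTA3 was dim in both (3.89 and 3.52). Of the 4 neuroendocrine markers measured, INSM1 had 5.38 in A549 and 335 in HTB-182 and NCAM1 had 21.0 and 98.2 in that order, whereas CHGA (11.1 and 7.51) and SYP (28.3 and 26.4) were not higher in HTB-182.

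The promoter windows of EREG, TGFA and ERBB2 are shown because these genes had the largest differences between A549 arrays. They are RefSeq sequences of GRCh38.p14, reading along the gene from 250 bases before the start site to 50 after it. Capitals mark matches, on either strand, to the palindromic estrogen response element or to a shorter motif. TGANTCA is an AP-1 type site. The letters GGGCGG are those of a GC box. A TATA box reads TATAAA. The EREG window lies at chr4:74364895-74365194 on the + strand, the first of the TGFA windows at chr2:70553777-70554076 on the - strand, and the ERBB2 window at chr17:39687844-39688143 on the + strand.
EREG: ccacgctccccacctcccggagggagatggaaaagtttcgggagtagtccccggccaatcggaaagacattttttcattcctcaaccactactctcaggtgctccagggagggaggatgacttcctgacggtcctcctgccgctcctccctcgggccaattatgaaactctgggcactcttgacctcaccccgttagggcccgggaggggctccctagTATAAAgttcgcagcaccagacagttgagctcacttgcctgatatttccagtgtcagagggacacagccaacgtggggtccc
TGFA: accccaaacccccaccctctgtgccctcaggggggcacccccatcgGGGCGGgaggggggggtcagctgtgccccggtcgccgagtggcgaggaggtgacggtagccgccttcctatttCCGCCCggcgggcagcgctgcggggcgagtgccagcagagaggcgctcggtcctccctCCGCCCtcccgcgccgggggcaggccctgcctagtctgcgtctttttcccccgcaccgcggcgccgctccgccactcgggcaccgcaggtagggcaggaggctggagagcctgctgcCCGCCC
ERBB2: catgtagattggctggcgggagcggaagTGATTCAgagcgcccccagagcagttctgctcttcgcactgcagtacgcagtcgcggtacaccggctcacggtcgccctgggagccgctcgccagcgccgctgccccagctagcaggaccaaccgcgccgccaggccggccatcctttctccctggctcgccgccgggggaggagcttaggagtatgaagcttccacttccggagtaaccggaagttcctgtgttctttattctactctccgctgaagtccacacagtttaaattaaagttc
The EREG window holds 1 TATAAA, whose first base is at -32 from the start site. The TGFA window holds 4 GGGCGG matches and the ERBB2 window 1 TGANTCA match at -222. The second TGFA window held none of these letters. The full estrogen response element was found in 0 of the 10 windows searched, which came from 8 members, and in 0.057% of all 35116 windows. NRG1 and ERBB3 were not among the members searched. TGANTCA was found in 7.71% of all windows, GGGCGG in 45.0% and TATAAA in 11.5%. These matches describe letters only and say nothing of binding.

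More members passed in the comparison of the lines than in any other, and most of those were brighter in A549. By limma, 16 of the 24 member probe sets were higher and 1 was lower in A549, at an adjusted p under 0.05. Over all tested probe sets 63.8% were called, 31.5% higher and 32.3% lower in A549. Lines without overlap are stated below for single probe sets. The share of all tested probe sets without overlap is not given, so nothing particular to the members is read from it. The median difference of the 24, A549 minus HTB-182 on the log2(intensity + 16) scale, was 0.54, and that of all tested probe sets was 0.010. EGFR 201983_s_at and 201984_s_at, both tested EREG probe sets and NRG1 206343_s_at, 206237_s_at and 208241_at were under 19.7 on every HTB-182 array. EGFR 224999_at, EGFR 210984_x_at and HBEGF 203821_at were not under it on every array, but their HTB-182 means were (15.4, 17.8 and 18.3). All of these reached the filter through A549 alone, so their direction was set by the filter and is no separate support. The pseudocount of 16 shrinks differences of dim probe sets, and no detection calls were used, so values under 19.7 are read only as dim.

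Among the receptors, EGFR had the largest line difference. Its brightest probe set, 224999_at, had an intensity of 446 with estradiol-BSA plus tamoxifen, 342 with estradiol-BSA, 377 with estradiol plus tamoxifen, 438 with estradiol and 508 with vehicle in A549. In HTB-182 it had 21.3, 13.2, 14.9, 12.9 and 14.8 in the same order of treatments. The lines did not overlap, and the difference was 3.80 ± 0.11 (SE, adjusted p = 1.19e-10, limma, positive in 5 of 5 treatment pairs). The HTB-182 mean was under 19.7, so the direction of this difference was set by the filter. Of the 8 tested EGFR probe sets 5 were higher in A549, among them 201983_s_at (2.99) and 201984_s_at (1.17). Probe set 1565483_at had 53.6 ± 11.8 in A549 and 66.5 ± 9.57 in HTB-182 (difference -0.25, adjusted p = 0.102). The probe sets 1565484_x_at and 211551_at also had negative differences, of -0.20 and -0.062, that did not pass. Which transcripts these probe sets read was not examined.

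ERBB2, the ligandless partner, was read by 1 tested probe set, 216836_s_at. It had 118 with estradiol-BSA plus tamoxifen, 131 with estradiol-BSA, 328 with estradiol plus tamoxifen, 354 with estradiol and 640 with vehicle in A549. In HTB-182 it had 48.1, 49.5, 51.3, 59.9 and 38.9 in that order. All A549 arrays lay above all HTB-182 arrays, with a difference of 2.09 ± 0.29 (SE, adjusted p = 6.79e-05, limma), but the pairs ran from 1.06 to 3.58. The other ERBB2 probe sets were dim and untested, at 26.5 or below in A549 and 12.0 or below in HTB-182.

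ERBB3, the receptor with an impaired kinase that signals through its partners, differed less. Its probe set 226213_at had 84.2, 82.1, 81.2 and 94.2 on the treated A549 arrays and 102 with vehicle, against 37.1, 37.0, 34.7, 31.0 and 29.9 in HTB-182 in the same order. Its difference was 1.07 ± 0.11 (SE, adjusted p = 3.77e-06, limma), and 202454_s_at gave 1.07 too. The probe sets 1563252_at and 1563253_s_at did not pass, at -0.083 and -0.026. ERBB4, the other neuregulin receptor, was dim everywhere, with its 4 probe sets between 5.12 and 14.2 on all 10 arrays, and was not tested.

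Among the ligands, NRG1 and EREG were bright in A549 and dim in HTB-182, and TGFA ran the other way. NRG1, the ligand of ERBB3 and ERBB4, had 1204, 1476, 1098 and 1185 on the treated A549 arrays and 1119 with vehicle by 206343_s_at. In HTB-182 the values were 8.44, 8.52, 9.53, 8.84 and 9.56 in that order. Its difference of 5.62 ± 0.11 (SE, adjusted p = 4.99e-12, limma) was the largest of any member. With 19.7 as a floor for the dim line, A549 was at least 61.3-fold higher. The NRG1 probe sets 206237_s_at (1.61) and 208241_at (0.68) were higher in A549 as well, whereas 208232_x_at was at 0.11 (adjusted p = 0.266).

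EREG, encoding epiregulin, had 1010 with estradiol-BSA plus tamoxifen, 931 with estradiol-BSA, 583 with estradiol plus tamoxifen, 305 with estradiol and 98.7 with vehicle in A549 by 205767_at. In HTB-182 it had 4.49, 3.34, 4.41, 4.52 and 4.21 in that order. The lines did not overlap, with a difference of 4.52 ± 0.37 (SE, adjusted p = 7.07e-07, limma), but the pairs ran from 2.51 to 5.65. With the same floor the geometric mean of the 5 A549 arrays was at least 22.3-fold higher. That mean holds 4 treated arrays, and the vehicle array lay well below it. The dim probe set 1569583_at gave 0.43 (adjusted p = 0.00165).

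TGFA, the transforming growth factor alpha gene, was the member that was lower in A549. Its probe set 205016_at had 111, 122, 99.4 and 101 on the treated A549 arrays and 27.4 with vehicle, against 297, 283, 283, 306 and 314 in HTB-182 in the same order. The highest A549 array was thus below the lowest HTB-182 array, and the difference was -1.64 ± 0.22 (SE, adjusted p = 4.58e-05, limma). The dimmer 211258_s_at was at -0.11 (adjusted p = 0.351), and passed as lower with array weights (-0.20, adjusted p = 0.0387).

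HBEGF, the ligand whose release couples membrane estrogen to EGFR in breast cancer cells, differed modestly. Its probe set 38037_at had 45.8, 49.0, 48.3 and 48.0 on the treated A549 arrays and 59.4 with vehicle, against 33.0, 37.5, 33.8, 32.2 and 36.6 in HTB-182. The difference was 0.38 ± 0.086 (SE, adjusted p = 0.00211, limma), and 203821_at gave 0.41. ERRFI1, the inhibitor of EGFR, had 1377, 1239, 1219 and 1295 on the treated A549 arrays and 1243 with vehicle, against 111, 109, 110, 90.5 and 112 in HTB-182. Its values in A549 were all above those in HTB-182, with a difference of 3.40 ± 0.092 (SE, adjusted p = 6.39e-11, limma).

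**Figure D1:**
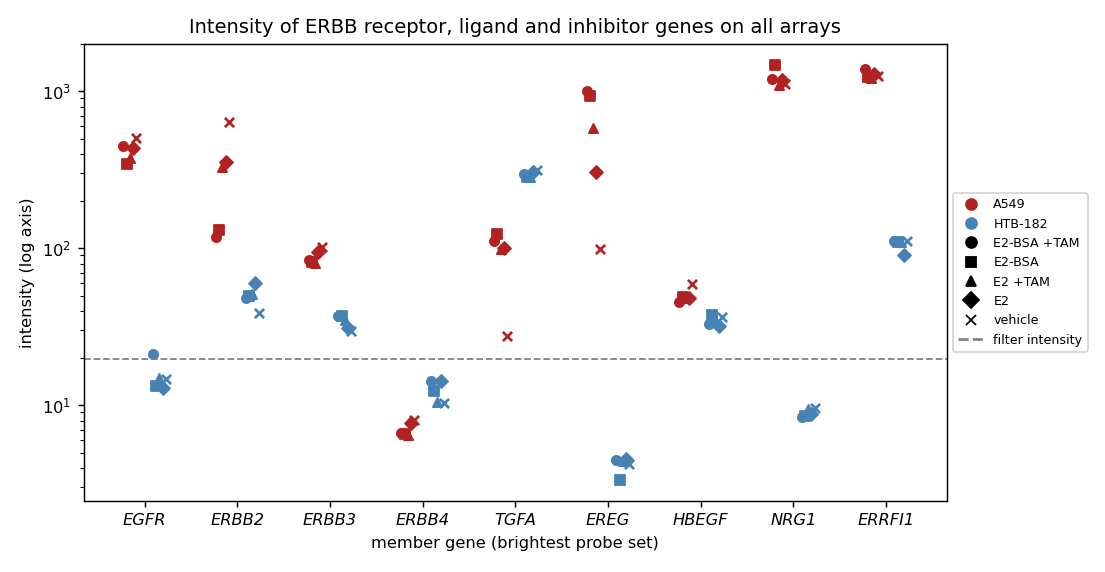
Intensity on a log axis for the brightest probe set of each member gene, with 1 point per array, A549 in red to the left of HTB-182 in blue, and a marker shape for each treatment. The dashed line is the intensity of 19.7 below which probe sets were not tested. NRG1, EREG, EGFR and ERRFI1 are bright in A549, TGFA is brighter in HTB-182, and ERBB4 is below the line on all arrays.

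**Figure D2:**
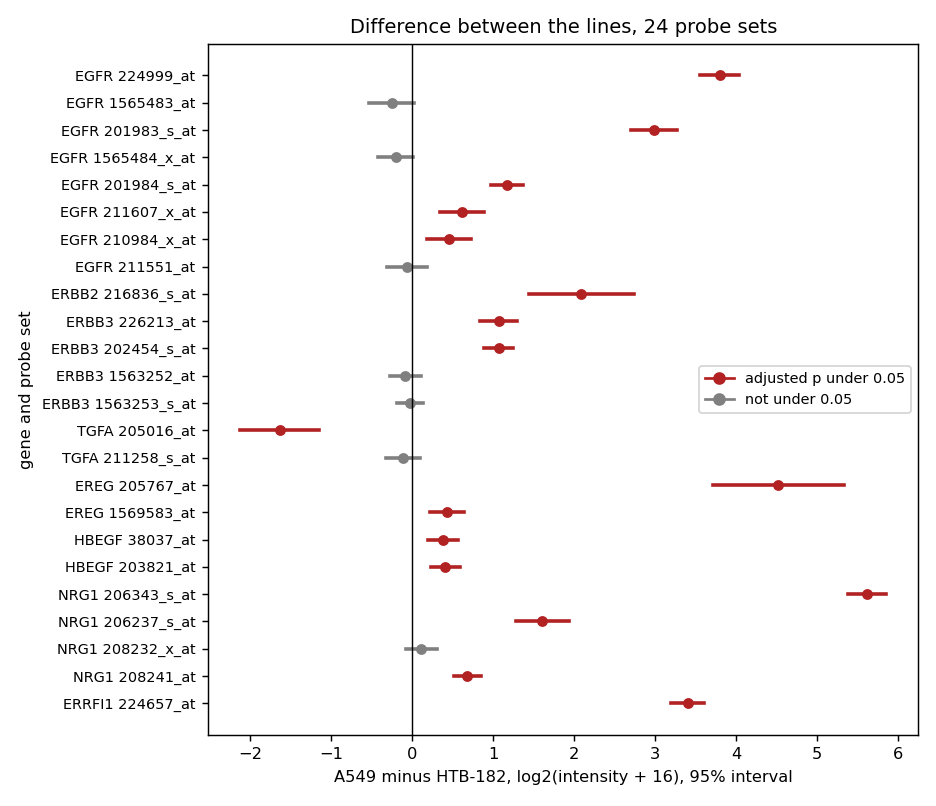
Difference between the lines, A549 minus HTB-182 on the log2(intensity + 16) scale, for the 24 tested member probe sets, with 95% intervals from limma (n = 5 arrays per line). The 17 red ones passed an adjusted p of 0.05, and only TGFA 205016_at among them lies below 0.

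Other genes of the pathway differed between the lines in both directions. Their counts stand beside the 63.8% of all tested probe sets called, 31.5% higher and 32.3% lower, and nothing particular to a list is read from them. Of 11 tested genes for ligand release, 5 were higher and 2 lower in A549. ADAM9, a membrane metalloproteinase, was at 1.28, RHBDF1, an inactive rhomboid that guides ADAM17, at 1.17, FURIN, a proprotein convertase, at 0.82 and MMP2 at -1.04. Of 18 signal transducers 7 were higher and 5 lower, with the adaptor SHC1 at 2.44, the kinase SRC at 1.79, the exchange factor SOS2 at 1.59 and the kinase MAP2K1 at -1.52. Of 13 genes for receptor downregulation 5 were higher and 6 lower. LRIG1, which promotes the degradation of ERBB receptors, was at -3.44, the ubiquitin ligases CBL at -1.44 and CBLB at 1.22, and LRIG3 at -1.39. Of 15 ERK-responsive genes 5 were higher and 7 lower, with the phosphatase genes DUSP5 at 3.33, DUSP4 at 3.01 and DUSP6 at -2.69 and the early response gene IER3 at 3.28. Among other ERBB ligands BTC, encoding betacellulin, was higher (0.49) of 2 tested.

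The treated arrays were then compared with vehicle across both lines, with the line as a block, to find responses shared by A549 and HTB-182. By limma 0 of the 24 member probe sets passed, against 0% of the 23144 tested. At an unadjusted p under 0.05 there were 5 of 24 members and 2320 of 23144 probe sets. The largest member estimates, treated minus vehicle, were 1.26 for EREG (95% interval 0.24 to 2.27), 0.71 for TGFA (0.10 to 1.31) and -0.62 for ERBB2 (-1.43 to 0.19). The brightest EGFR and HBEGF probe sets had -0.15 and -0.16. Without the HTB-182 vehicle array, when A549 alone supplies vehicle, 3901 probe sets passed, 7 of them members. Without the A549 vehicle array 2 probe sets and 0 members passed, and EREG was at -0.0015, TGFA at -0.099 and ERBB2 at 0.31.

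Values within each line lie behind these estimates. In A549, TGFA 205016_at and EREG 205767_at were at least 2-fold above vehicle on all 4 treated arrays, as were 1.15% of tested probe sets. For EREG the log2 differences from vehicle were 3.16 with estradiol-BSA plus tamoxifen, 3.04 with estradiol-BSA, 2.39 with estradiol plus tamoxifen and 1.49 with estradiol. For TGFA 205016_at they were 1.55, 1.67, 1.41 and 1.43, close to each other. The dimmer TGFA probe set 211258_s_at went the other way, at -0.75, -0.63, -0.48 and -0.57 in that order. EREG 1569583_at, also dimmer, was between -0.093 and 0.27. ERBB2 was below vehicle by -2.30, -2.16, -0.93 and -0.83. By any size, 14 of the 24 member probe sets were below vehicle on all 4 treated A549 arrays, against 46.8% of tested probe sets, and 2 above, against 18.1%. The range over the 5 arrays reached 2-fold for 4 member probe sets in A549, of ERBB2, TGFA, EREG and NRG1, against 5.12% of all tested, and for 0 in HTB-182, against 0.398%. In HTB-182 the differences from vehicle were -0.063 to 0.022 for EREG, -0.14 to -0.038 for TGFA and 0.22 to 0.47 for ERBB2. These differences between single arrays have no replicate and carry no p.

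**Figure D3:**
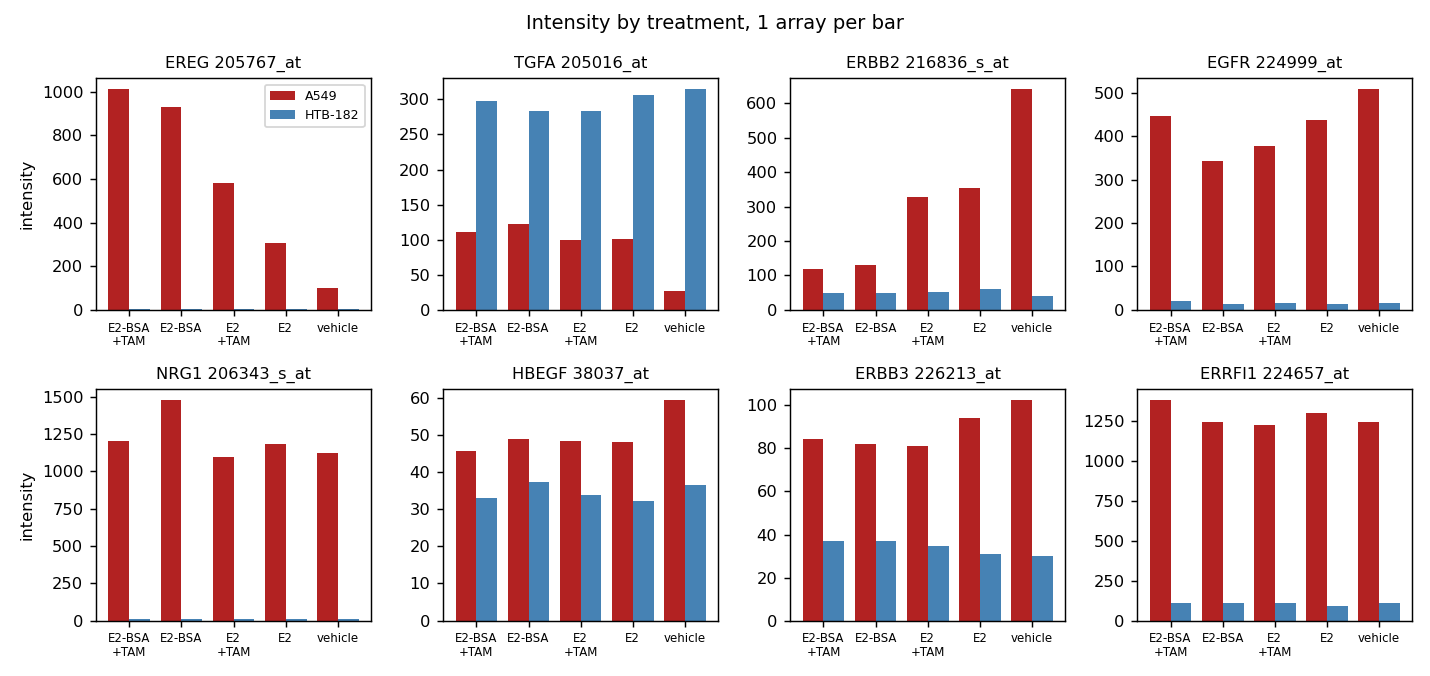
Intensity by treatment for the brightest probe sets of 8 members, with 1 array per bar, A549 in red to the left of HTB-182 in blue, treatments to the left of vehicle. In A549 EREG runs between 1010 with estradiol-BSA plus tamoxifen and 98.7 with vehicle and ERBB2 between 118 and 640, while in HTB-182 EREG stays at 4.52 or below and ERBB2 between 38.9 and 59.9. E2 is estradiol and TAM tamoxifen.

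Whether treated minus vehicle differed between the lines was tested by a line by treatment term, A549 minus HTB-182. By limma 4 of 24 member probe sets passed, against 3.38% of all tested. EREG 205767_at was at 2.52 ± 0.47 (SE, adjusted p = 0.00826), TGFA 205016_at at 1.61 ± 0.23 (adjusted p = 0.00111) and ERBB2 216836_s_at at -1.86 ± 0.43 (adjusted p = 0.0290). The fourth was EGFR 210984_x_at, at -0.79 ± 0.19 (adjusted p = 0.0380), with 32.2, 22.2, 25.5 and 27.3 on treated arrays and 47.5 with vehicle in A549, against 18.4, 18.3, 19.9, 18.6 and 13.9 in HTB-182. The brightest EGFR probe set was at -0.37 (adjusted p = 0.381), and the dimmer probe sets of EREG and TGFA were at 0.075 and -0.46 and did not pass.

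This term fits each vehicle array exactly, so the 4 calls rest on a single vehicle array per line, and that of A549 is the one that stood apart. The term could not be fitted without either of them. SOX2 moved with it (1.82, adjusted p = 0.000271), and its part in the result was not tested. With quantile normalization, or without the intensity trend, 2 of the 4 passed. ERBB2 was lost (adjusted p = 0.0506 and 0.0565), and so was EGFR 210984_x_at (0.0835 and 0.0682). EGFR 210984_x_at was also lost without the estradiol plus tamoxifen or the estradiol-BSA array of either line (adjusted p up to 0.0678).

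**Figure D4:**
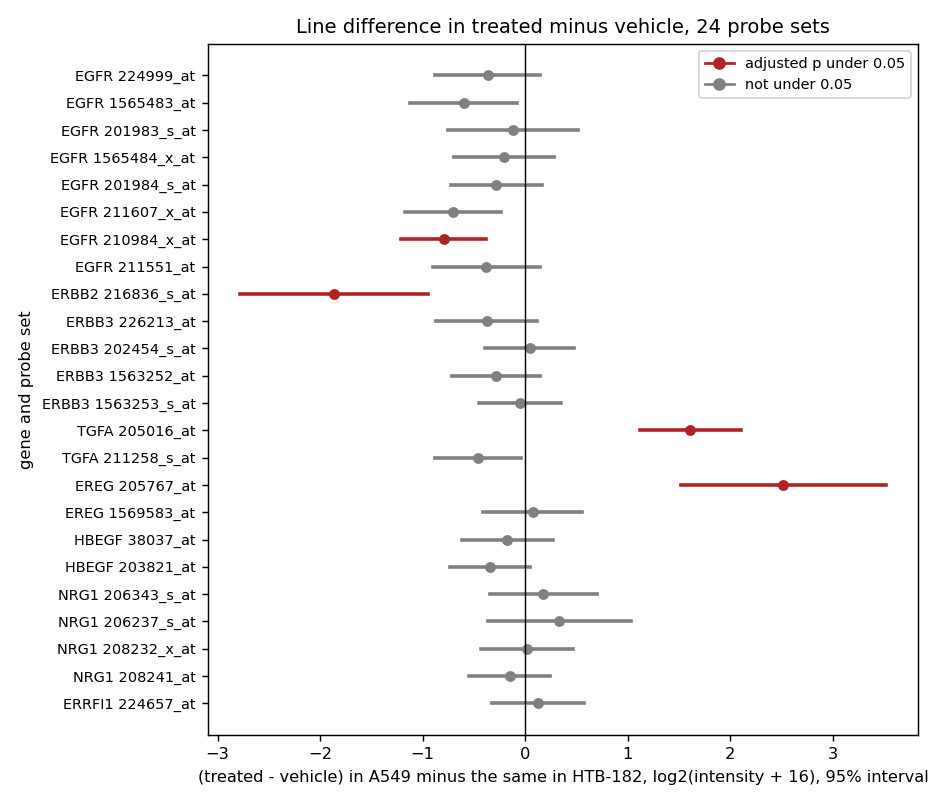
Difference between A549 and HTB-182 in treated minus vehicle, on the log2(intensity + 16) scale with 95% intervals from limma, for the 24 tested member probe sets. The 4 red ones passed an adjusted p of 0.05, with EREG and TGFA above 0 and ERBB2 and EGFR 210984_x_at below 0.

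Free estradiol alone was compared with vehicle, and 0 of 24 members passed, against 0% of all tested. The smallest adjusted p among the members was 0.899, and at an unadjusted p under 0.05 there were 3 of 24 members and 1117 probe sets in all (limma, 2 pairs). EREG was at 0.75 (95% interval -0.53 to 2.04), TGFA at 0.69 (-0.070 to 1.46) and ERBB2 at -0.18 (-1.21 to 0.84). Without the HTB-182 vehicle array 1454 probe sets passed, 6 of them members, and without the A549 vehicle array 2 and 0.

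Estradiol-BSA alone against vehicle also gave 0 of 24 members, against 0% of all tested, with 6 of 24 and 1569 of all at an unadjusted p under 0.05 (limma, 2 pairs). EREG was at 1.49 (95% interval 0.21 to 2.78), TGFA at 0.77 (0.0020 to 1.53) and ERBB2 at -0.95 (-1.98 to 0.074). Without the HTB-182 vehicle array, when A549 alone supplies vehicle, EREG was at 2.75, TGFA at 1.57 and ERBB2 at -1.88. Without the A549 vehicle array TGFA was at -0.041. Over all arrays left out in turn, EREG ran from 0.23 to 2.75 and ERBB2 from -1.88 to -0.020.

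The estrogen forms, each labelled 1 µM and given for 3 h, were compared directly, estradiol-BSA minus estradiol. Of the 24 members 0 passed, against 0% of all tested, and 1 of 24 and 834 of all had an unadjusted p under 0.05 (limma, 2 pairs). The intervals left room for sizeable differences in either direction. EREG was at 0.74 (95% interval -0.55 to 2.02), with pairs of 1.56 in A549 and -0.085 in HTB-182, and ERBB2 at -0.77 (-1.79 to 0.26), with pairs of -1.33 in A549 and -0.21 in HTB-182. EGFR 224999_at was at -0.16 (-0.55 to 0.22). Single arrays of A549 were also set side by side in pairs matched for tamoxifen, a comparison chosen after seeing the data and without a p. EREG was 1.56 higher on the log2 scale with estradiol-BSA than with estradiol, and 0.78 higher where both had tamoxifen, so it reached 2-fold in only the pair without tamoxifen. No member was at least 2-fold higher in both pairs, against 0.0259% of tested probe sets. ERBB2 was at least 2-fold lower in both, at -1.33 and -1.37, against 0.0216%.

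Tamoxifen was compared as the estrogen with tamoxifen minus the same estrogen alone, over 4 pairs. By limma 0 of 24 members passed, against 0% of all tested, and 0 of 24 members and 392 of 23144 probe sets had an unadjusted p under 0.05. EREG was at 0.27 (95% interval -0.64 to 1.18), and its A549 pairs were 0.90 with estradiol and 0.12 with estradiol-BSA. ERBB2 was at -0.11 (-0.84 to 0.61), and all of its 4 pairs were below 0. NRG1 206237_s_at had 37.0 with estradiol plus tamoxifen and 103 with estradiol in A549, a log2 difference of -1.17, whereas its other 3 pairs were above 0. Whether tamoxifen acted differently in the lines was tested too, and 0 of 24 members passed, against 0% of all tested (limma; 0 of 24 members and 484 of all at an unadjusted p under 0.05). EREG had the estimate 1.23 there (95% interval -0.18 to 2.64) and ERBB2 -0.64 (-1.87 to 0.59).

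After each line was centred on its own mean, genes with the most similar pattern over the 10 arrays were found by Pearson's r, as a description over arrays that share lines and treatments. For EREG they were HNRNPK (0.993), TCF4 and DMAC2L, and 365 of 12979 genes exceeded 0.9. For TGFA they were PBX2 (0.993), CCNQ and C8orf76, with 332 genes above 0.9, and for ERBB2 CHD7 (0.983), NIPAL4 and DLGAP4, with 276. The log2 SD over arrays was 1.31 in A549 and 0.036 in HTB-182 for EREG, and 0.69 and 0.062 for TGFA. It was 0.97 and 0.17 for ERBB2, so these r rest mostly on A549. For TGFA the vehicle array weighs most (27.4 against 99.4 to 122 on treated A549 arrays). HNRNPK had a log2 SD of only 0.11 in A549, so r says nothing of size. EGFR was closest to NAT9 (0.953), ERBB3 to NDUFB4 (0.977) and HBEGF to OVOL1-AS1 (0.974). NRG1 was closest to DLL3 (0.972), and ERRFI1 to EIF1 (0.931), with 2 and 1 genes above 0.9.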

How the data were processed

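Total RNA of the 10 samples was read on a human expression array. The authors deposited a table of intensities on a linear scale. MAS5 is named in the submitters' processing notes, with no version or scaling target given there or in the other sources used here. Control probe sets (62) and those naming several genes (1801) or none (11721) in the platform annotation were left out. Intensities were taken as log2(intensity + 16) and tested in R 4.3.3 with limma 3.58.1 (intensity trend, Benjamini-Hochberg over 23144 probe sets at 0.05). Additive fits held line and treatment with 4 residual degrees of freedom, and interaction fits 3. Line served as the block, and the number of arrays limits the precision. The code was tested on simulated data, and figures were drawn with matplotlib 3.10.9.

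The members and gene lists were chosen with earlier results of these data known. All members were named. From each list up to 4 genes of largest size that passed, the same way in every pair, were named for the line comparison. For treatments, where 0 passed, the rule took the 2 genes of largest size per list, and a choice of these, made after their values were seen, is given under the other observations. Pathway genes are given by their brightest probe sets. Alternatives were other pseudocounts, filters, quantile normalization, array weights, no intensity trend, the brightest probe set per gene, and leaving out each array. A search of protein sequences for ligand modules was not run.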

Additional observations from a re-analysis of the deposited data

Results flagged for a closer look

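In 8 of 48 groups of 5 arrays (1 line and 1 member probe set each, 16.7%), 1 array lay far from the others of its line. Chance alone marks about 1 in 20 such groups, and 7.10% of the groups of all tested probe sets were marked (8.37% in A549 and 5.83% in HTB-182). The groups mix 5 treatments and the A549 vehicle array departs over many probe sets, so nothing particular to the members is read from the count. On the A549 vehicle array these were EGFR 211607_x_at (76.95 against 34.2 on the nearest array), HBEGF 38037_at (59.4 against 49.0) and TGFA 205016_at (27.4 against 99.4). On the A549 estradiol array it was ERBB3 1563252_at, at 20.6 against 26.9. In HTB-182 it was EGFR 224999_at with estradiol-BSA plus tamoxifen (21.3 against 14.9), EREG 205767_at with estradiol-BSA (3.34 against 4.21), ERRFI1 224657_at with estradiol (90.5 against 109) and EGFR 210984_x_at with vehicle (13.9 against 18.3).

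For 4 member probe sets, treated minus vehicle differed between A549 and HTB-182 by a test of the difference itself. The estimates were 2.52 for EREG 205767_at, 1.61 for TGFA 205016_at, -1.86 for ERBB2 216836_s_at and -0.79 for EGFR 210984_x_at. Each rests on 1 vehicle array per line.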

How the results depend on the processing

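Each arm of a line is a single array and low intensities have no detection call, so dim members carry only rough values. The fits pair arrays by line and treatment, and pairing by replicate number was not possible, since every group has only replicate number 1. The line difference called 9153 probe sets with a filter at the 75th percentile and 8526 with 1 probe set per gene, since fewer were tested, and 13468 to 15073 when an array was left out, with 17 to 19 member probe sets. Array weights gave 1981 calls for the line by treatment term, against 782, and leaving out an array gave 448 (without A549 estradiol-BSA plus tamoxifen) to 3502 (without A549 estradiol), with 3 or 4 members called. Leaving out an array gave 0 to 3901 calls for treated minus vehicle, 0 to 1454 for estradiol, 0 to 2716 for estradiol-BSA, 0 to 1 for estradiol-BSA minus estradiol and 0 to 7 for the line by tamoxifen term. All 7 of the last came without either estradiol-BSA array.

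EGFR 1565483_at and 1565484_x_at passed as lower in A549 with quantile normalization, with array weights or without either vehicle array (adjusted p = 0.0253, 0.00567 and 0.00769 at the lowest for 1565483_at). TGFA 211258_s_at passed as lower with array weights (adjusted p = 0.0387), and EGFR 211607_x_at passed in the line by treatment term with a pseudocount of 64 (-0.45, adjusted p = 0.0385). Signs turned in these cases when an array was left out. EGFR 211551_at ran from -0.14 to 0.050 in the line difference. Treated minus vehicle ran from -0.34 to 0.029 for EGFR, -1.55 to 0.31 for ERBB2, -0.099 to 1.51 for TGFA and -0.0015 to 2.52 for EREG. Estradiol minus vehicle ran from -1.11 to 0.75 for ERBB2, -0.11 to 1.50 for TGFA and -0.51 to 2.01 for EREG, and estradiol-BSA minus vehicle from -0.041 to 1.57 for TGFA. Tamoxifen estimates ran from -0.43 to 0.21 for ERBB2 and -0.079 to 0.62 for EREG, and the line by tamoxifen term from -1.28 to 0.011 for ERBB2. In the line by treatment term EGFR 201983_s_at ran from -0.22 to 0.071, EREG 1569583_at from -0.062 to 0.13 and NRG1 208232_x_at from -0.053 to 0.089. There, EGFR 201983_s_at was 0.13 with a pseudocount of 1, and ERBB3 1563253_s_at was 0.075 with quantile normalization. In the same term ERBB2 216836_s_at did not pass with quantile normalization or without the intensity trend (adjusted p = 0.0506 and 0.0565), and EGFR 210984_x_at did not pass under those settings or with no filter. The cause was not tested.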

Other observations

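None of the listed pathway genes passed a treatment comparison across both lines (limma). The following estimates had the same sign in every pair. With estradiol-BSA against vehicle, LRIG3 was at 0.69 (unadjusted p = 0.00483, adjusted p = 0.658), the ERK phosphatase gene DUSP6 at -0.46 (0.00558, 0.658) and ETV5, an ERK-responsive transcription factor gene, at -0.44 (0.0114, 0.658). ADAM9 was at 0.45 and RHBDF2, another inactive rhomboid, at -0.48, both with an adjusted p of 0.658. With estradiol against vehicle, CBLC was at -0.43 and BTC at -0.35 (adjusted p = 0.899 for both). With estradiol-BSA minus estradiol, IER3 was at -0.44, DUSP6 at -0.33 and BTC at 0.40 (adjusted p = 0.991 for each). When tamoxifen was added, DUSP6 was at 0.28 (adjusted p = 1.000).

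The line by treatment term called 1 of 18 signal transducers, the kinase gene ARAF, at 0.95 ± 0.24 (SE, adjusted p = 0.0483, limma), against 3.38% of all tested probe sets. Like the member results of that term, it rests on 1 vehicle array per line.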
